A study of Rattus norvegicus with 3 samples.

Results

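This report describes 47 genes of collagen chains, laminin chains and other extracellular matrix proteins, of 16629 genes and regions measured, in the rat pineal gland at midnight and at midday and in a pool of other tissues. They were chosen by symbol: names that begin like a collagen chain (Col, a number, a, a number) or a laminin chain (Lama, Lamb or Lamc and a number), and a fixed set of 20 other matrix proteins, of which 15 were matched. Fbln2, Nid1, Hspg2, Thbs1 and Tnc had no matching row and were not analysed here. The 47 hold 24 collagen chains, 7 laminin chains, the 15 other proteins and Col4a3bp, which the name pattern takes in although it encodes a ceramide transfer protein and not a collagen. It is given separately where it affects a count.

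The study holds 3 poly(A) RNA libraries, 1 for each group. All came from adult Sprague-Dawley rats on 14 h of light and 10 h of dark. The first 2 are pineal glands at zeitgeber time 19 (midnight, hours after lights on) and at zeitgeber time 7 (midday). The third library, also from zeitgeber time 7, mixed equal amounts of RNA from 15 tissues: adrenal gland, small intestine, skeletal muscle, kidney, lung, liver, heart, pituitary, retina, spinal cord, hindbrain, hypothalamus, midbrain, cerebellum and cortex. No source used here gives the sex or number of the animals behind a library, and the pool cannot tell which tissue a transcript came from. With 1 library per group there is no replicate check, so the differences below are described by size, with no test. The midnight and midday glands differ in time of day, and any other difference between those 2 libraries cannot be told apart from it.

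The extracellular matrix is a scaffold of secreted proteins. Fibrillar collagens, each a triple helix of chains, form the tensile fibres of connective tissue, while type IV collagens and laminins, which are trimers of an alpha, a beta and a gamma chain, build the basement membranes under epithelia and around blood vessels. Elastin and fibrillins form elastic fibres, small leucine-rich proteoglycans bind collagen fibrils, and adhesive and matricellular proteins such as fibronectin and Sparc link matrix to cells. The pineal gland is a secretory organ of pinealocytes with a connective tissue capsule continuous with the meninges, many vessels and some glia.

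The unit is FPKM, fragments counted per kilobase of transcript and scaled to library size, so levels of different genes can be compared per length. Fold comparisons use the log2 ratio of FPKM + 1, which understates the fold of genes with low values, and cover genes that reach 1 FPKM in one or both of the libraries compared. Read totals are not in the files. The step of 1 fragment, read from olfactory receptor gene models, put the depth of the night library at 60.5% and that of the mixed tissues at 108% of the day library, and 3 fragments on 1 kb of transcript correspond to 0.567 FPKM at midnight, 0.343 at midday and 0.316 in the mixed tissues. The night step rests on 4 models. As a check of the tissue labels, Tph1, the pinealocyte enzyme that starts serotonin synthesis, stood at 4245 FPKM at midnight, 4665 at midday and 0.309 in the mixed tissues. All 10 pinealocyte markers were past 4-fold above the mixed tissues in both gland libraries.

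The promoters of 3 genes are shown because the results turn on them: Lamb3, the member with the highest night over day ratio, Col5a3, the member with the lowest, and Col8a1, the member with the highest gland over mixed tissue ratio. Each is 300 bases, 250 before and 50 after the gene start, 5′ to 3′ on the gene's strand, from RefSeq on build GRCr8. Capitals mark matches, on either strand, to the full cAMP response element TGACGTCA or to the GC box CCGCCC. The photoreceptor and pineal homeobox motif TAATCC and the TATA box TATAAA were searched too and had no match in these 3 windows. Lamb3 is at chr13:107362303-107362602 (plus strand), Col5a3 at chr8:27625899-27626198 (minus strand) and Col8a1 at chr11:56246532-56246831 (plus strand).
Lamb3: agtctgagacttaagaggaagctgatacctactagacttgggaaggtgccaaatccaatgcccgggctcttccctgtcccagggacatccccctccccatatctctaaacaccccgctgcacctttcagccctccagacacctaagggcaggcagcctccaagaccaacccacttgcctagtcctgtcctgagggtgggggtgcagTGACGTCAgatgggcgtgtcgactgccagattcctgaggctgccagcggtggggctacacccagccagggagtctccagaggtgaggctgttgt
Col5a3: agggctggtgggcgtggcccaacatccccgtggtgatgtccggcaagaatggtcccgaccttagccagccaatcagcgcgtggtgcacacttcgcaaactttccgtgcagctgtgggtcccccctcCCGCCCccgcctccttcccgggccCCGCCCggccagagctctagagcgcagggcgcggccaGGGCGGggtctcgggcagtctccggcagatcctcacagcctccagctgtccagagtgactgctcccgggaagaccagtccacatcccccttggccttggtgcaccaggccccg
Col8a1: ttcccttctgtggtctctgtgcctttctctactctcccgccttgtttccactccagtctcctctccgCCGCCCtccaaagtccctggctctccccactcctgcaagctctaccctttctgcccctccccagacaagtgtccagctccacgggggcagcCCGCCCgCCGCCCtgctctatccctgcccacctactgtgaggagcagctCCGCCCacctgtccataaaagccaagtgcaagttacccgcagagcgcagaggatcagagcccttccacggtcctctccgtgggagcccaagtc
TGACGTCA is bound by CREB and CREM, the factors through which night-time cAMP acts on pineal genes. Its match in Lamb3 lies at positions -44 to -37 from the gene start. Of 33469 promoters of this length in the table, 612 (1.83%) hold it, and Lamb3 is the 1 of 34 member promoters (2.94%, 33 symbols matched) that does. A share resting on 1 promoter cannot be read as a difference from all promoters. The GC box is in 33.1% of all promoters and in 18 of the 34. TAATCC is in 7.17% of all and in 0 of the 34, and TATAAA in 14.2% of all and in 5 of the 34. A match describes the letters of a window and was not tested as a binding site, nor for a part in the level of its gene.

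The members made up 714 FPKM in total at midnight, 950 at midday and 1488 in the mixed tissues, or 0.333%, 0.453% and 0.603% of all FPKM. Sparc, a collagen-binding glycoprotein of growing and remodelling tissue, was the highest member of each library, at 200 FPKM at midnight, 254 at midday and 567 in the mixed tissues. It ranked 121st at midnight, 70th at midday and 20th in the mixed tissues among all genes. In the gland Col8a1 came next. The mixed-tissue library held the highest value of 33 members, the day gland that of 10 and the night gland that of 3 (Lamb3, Lamc1 and Col4a3bp), while Lamb2 was listed at 0 in every library. The same count was not made over all genes. Of all genes compared, 61.8% were lower in the day gland than in the mixed tissues, and 65.4% in the night gland.

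**Figure D1:**
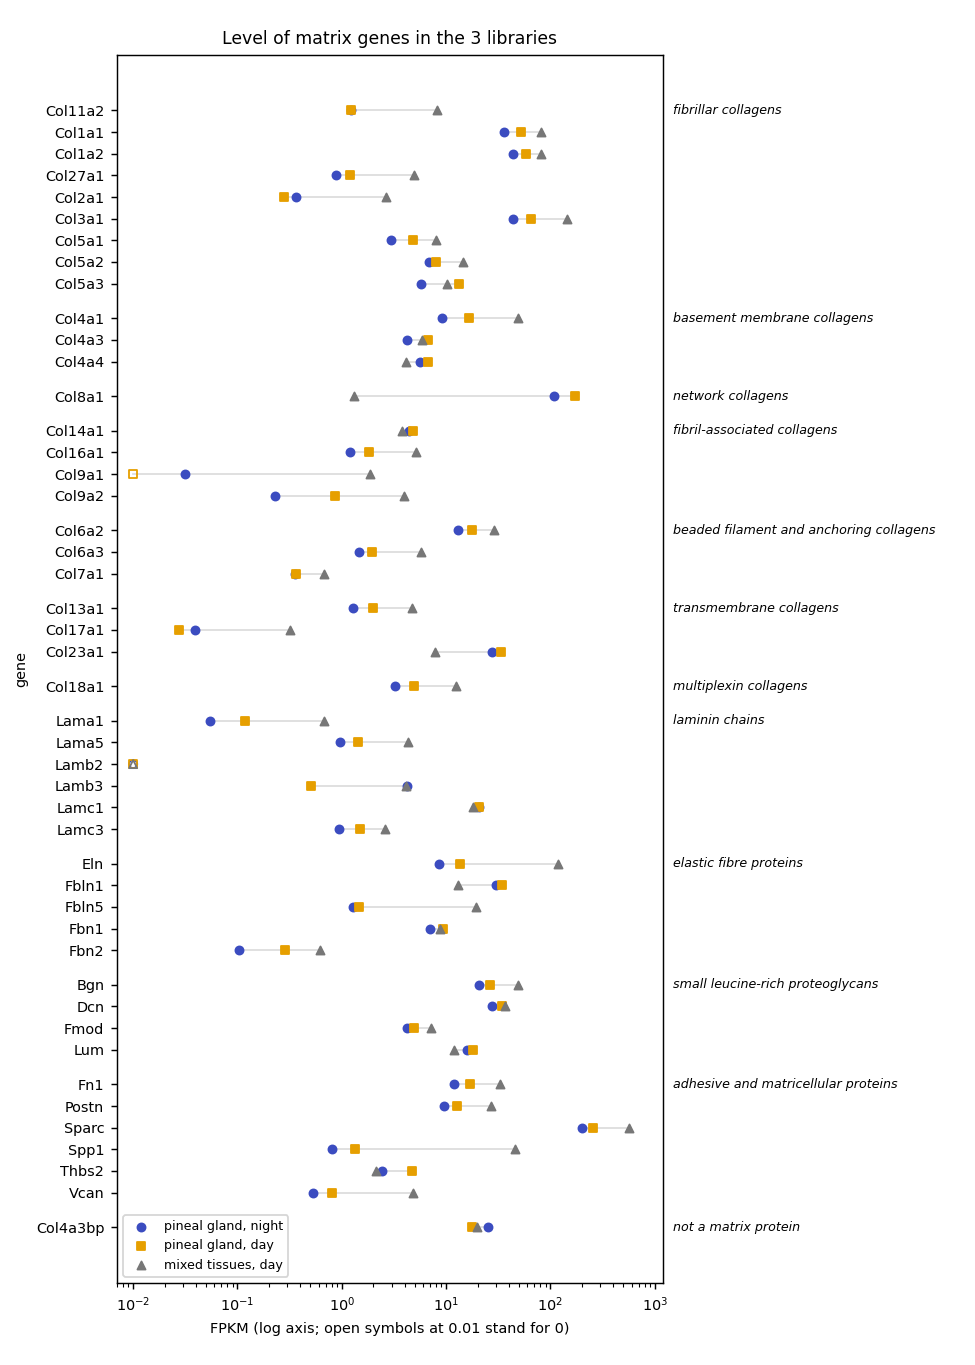
FPKM of 46 of the 47 genes (log axis) in the night gland (circles), the day gland (squares) and the mixed tissues (triangles), 1 library per symbol, by role. Col8a1, Col23a1 and Fbln1 have both gland values to the right of the mixed tissues, and Spp1, Eln and Fbln5 lie far to the left of them.

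At midnight, matrix transcripts as a group were modestly lower than at midday. Of all 47 members, 39 had a lower FPKM at midnight, 7 a higher one and Lamb2 was at 0 in both libraries. Of all genes without the filter, 47.9% were lower at midnight, a share whose total includes genes at 0 in both libraries. The summed level at midnight was 75.1% of that at midday. Of the 37 members compared, 34 had a log2 ratio below 0 and 3 above it, against 61.8% of all 9826 genes compared below 0. The median was -0.35 for the members and -0.11 for all genes, and once ratios were centred on the median of all genes the members' median was -0.24, with 32 of 37 below 0, where centring splits all genes evenly (Col11a2 and Col14a1 moved above it). At least 1.2-fold lower were 25 of 37 members, against 33.2% of all genes, or 14 of 37 after centring, against 23.4% of all genes centred likewise. At 2-fold, 1 member was higher (Lamb3; background 4.18%) and 1 was lower (Col5a3; background 2.11%), shares near those of all genes. The members passed the level filter partly through the library where they are high, so these counts describe the 37 and not all members. In bulk RNA, fewer matrix-making cells and less matrix RNA per cell cannot be told apart.

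**Figure D2:**
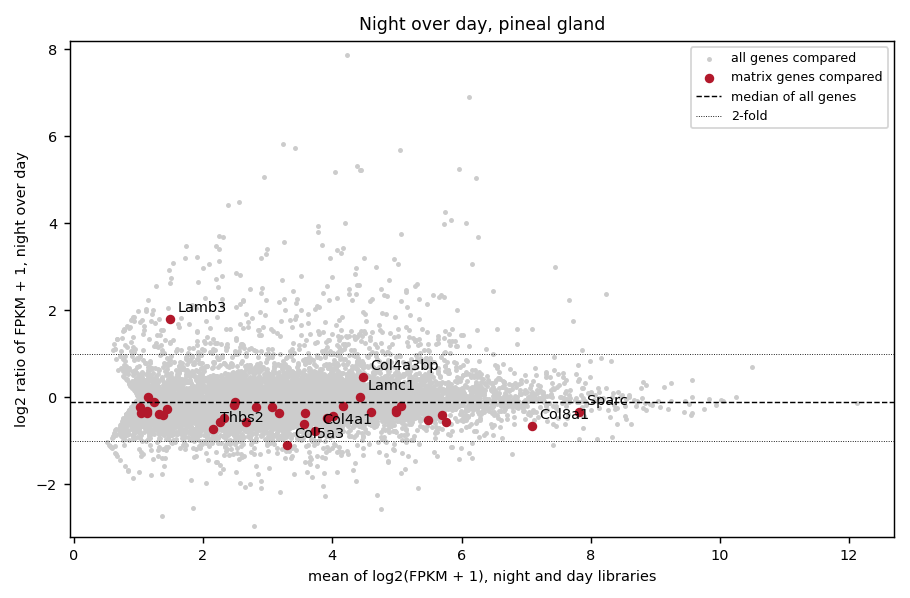
Log2 ratio of FPKM + 1, night over day, against the mean level in the 2 gland libraries (log2 of FPKM + 1), with every gene compared in grey and the 37 matrix genes compared in red. Most red points lie between the dashed median of all genes (-0.11) and the lower dotted 2-fold line, Lamb3 lies at 1.80 and Col5a3 at -1.09.

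Fibrillar collagens were lower at midnight in each of the 8 chains compared, with a median log2 ratio of -0.47, though Col11a2 was within 0.01 of 0 and stood at 0.11 after centring on all genes. Col1a1, the alpha 1 chain of type I collagen, the main collagen of connective tissue, was at 36.2 FPKM at midnight and 52.8 at midday (log2 ratio -0.53). Col1a2, its partner chain, was at 43.9 and 58.5 (-0.41). Col3a1, the type III chain of soft tissue and vessel walls, was at 43.3 and 64.7 (-0.57). For these 3 abundant chains the counting bounds of the plain FPKM ratio on 1 kb of transcript, shorter than their mRNAs, were 0.578 to 0.815, 0.639 to 0.877 and 0.571 to 0.781. Such bounds cover counting error alone and not the spread between animals. The ratio of Col1a1 to Col1a2 was 0.825 at midnight, 0.902 at midday and 1.01 in the mixed tissues.

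Among the type V chains, which regulate fibril diameter, the 3 genes had different night over day ratios, but their 1 kb counting bounds overlap. Col5a3 was at 5.75 FPKM at midnight, 13.4 at midday and 10.3 in the mixed tissues, the lowest night over day ratio of the members (log2 -1.09, 2.33-fold lower in plain FPKM, 1 kb counting bounds 0.274 to 0.638; chr8:19789061-19834241, rn4). The night value was below both other libraries and the day value above both. Col5a1 was at 2.95 FPKM at midnight and 4.82 at midday (log2 -0.56, 1 kb counting bounds 0.331 to 1.14). Col5a2 was at 6.79 and 8.07 (log2 -0.22, bounds 0.545 to 1.27). The bounds of Col5a1 and Col5a2 include 1. After centring on all genes Col5a3 stood at -0.98, just inside 2-fold.

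The collagens of basement membranes had ratios below 0 at midnight as well, but of the genes given here only Col4a1 had 1 kb counting bounds that left out 1. Col4a1, a chain of the type IV network found around nearly all vessels, was at 9.17 FPKM at midnight, 16.4 at midday and 48.8 in the mixed tissues (night over day log2 -0.78, bounds 0.398 to 0.783). Col4a3 and Col4a4, chains of a more specialised type IV network known from kidney glomeruli, were at 4.22 and 5.56 FPKM at midnight and at 6.77 and 6.66 at midday (log2 -0.57 and -0.22, bounds 0.360 to 1.02 and 0.510 to 1.31). Their spans on chromosome 9 lie 567 bp apart in rn4. Col18a1, a vessel-associated collagen whose fragment is endostatin, was at 3.22 FPKM at midnight and 4.90 at midday (log2 -0.48, bounds 0.350 to 1.17).

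Of the 4 laminin chains compared, Lamb3 had 1 kb counting bounds that left out 1, and those of Lamc1, Lama5 and Lamc3 did not. Lamc1, the gamma chain shared by most laminins, was at 20.7 FPKM at midnight, 20.5 at midday and 18.01 in the mixed tissues, with a log2 ratio near 0 (0.01, or 0.12 after centring) and 1 kb counting bounds of 0.786 to 1.28. Lama5, an alpha chain of vascular and epithelial basement membranes, was at 0.959 FPKM at midnight, 1.44 at midday and 4.29 in the mixed tissues. Lamc3 was at 0.946, 1.49 and 2.58. Both lie near the 1 kb floor, with 1 kb counting bounds of 0.178 to 1.90 for the night over day fold, too wide to read a difference at that length. Bounds on a longer transcript would be narrower and were not computed. Per length, Lamc1 stood 21.6 times above Lama5 at midnight, 14.2 times at midday and 4.20 times in the mixed tissues. The night and day ratios differ mainly through Lama5, so their difference carries its wide 1 kb bounds. Lamb2, a beta chain of vessel and synaptic basement membranes, is listed at 0 in all 3 libraries and sits on the unplaced sequence chr16_random of rn4, so its level is not known from these tables.

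Lamb3, the beta chain of the laminin that anchors epithelia such as the epidermis, was the only member compared that was at least 2-fold higher at midnight. It was at 4.24 FPKM at midnight, 0.506 at midday and 4.12 in the mixed tissues (chr13:109148815-109190320, rn4). The night value was close to that of the mixed pool and the day value was far below both. The night over day log2 ratio was 1.80, or 8.38-fold in plain FPKM, with 1 kb counting bounds of 3.09 to 36.3. The day value lies near the 1 kb floor of 0.343 FPKM, so the size of the fold is loose, and the log2 ratio was 0.75 with a pseudocount of 5. Between the gland libraries, Lamb3 passed the filter through the night library alone. On chromosome 13 of rn4 the span of Lamb3 ends 2512 bp from that of Camk1g, a calmodulin-dependent kinase gene, which was at 93.9 FPKM at midnight, 15.1 at midday and 5.83 in the mixed tissues. The promoters of the 2 genes lie on opposite strands and on the outer sides of the pair in GRCr8, so their ends face each other. Lamb3 had 0.0452 times the FPKM of Camk1g at midnight, 0.0336 times at midday and 0.706 times in the mixed tissues. No step of the protocol in the labels marks the strand of the RNA. Whether fragments from Camk1g were counted for Lamb3 was not tested.

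**Figure D3:**
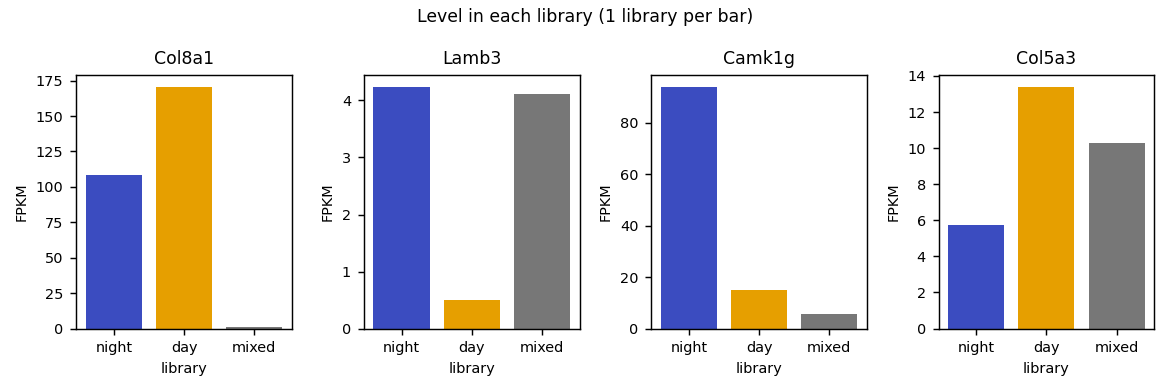
FPKM of Col8a1, Lamb3, its neighbour Camk1g and Col5a3 in the night gland, the day gland and the mixed tissues, 1 library per bar, each panel with its own axis from 0. Col8a1 is near 0 in the mixed tissues, Lamb3 and Camk1g both have a higher bar at midnight than at midday, and Lamb3 in the mixed tissues (4.12) is as high as at midnight (4.24).

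The 4 elastic fibre genes and 4 small proteoglycans compared all had ratios below 0 at midnight, from -0.61 for Eln to -0.11 for Fbln5. Eln, tropoelastin, was at 8.57 FPKM at midnight and 13.6 at midday (log2 -0.61). Fbn1, fibrillin of microfibrils, was at 7.01 and 9.27 (-0.36), Fbln1, a fibulin of elastic fibres and basement membranes, at 30.1 and 34.6 (-0.20), and Fbln5, which helps assemble elastin, at 1.28 and 1.47 (-0.11). The 4 proteoglycans had a median of -0.26. Bgn (biglycan) was at 20.6 FPKM at midnight and 26.4 at midday (-0.34), and Dcn (decorin) at 27.3 and 34.6 (-0.33). Lum (lumican) stood at 15.8 and 18.3 (-0.20), and Fmod (fibromodulin) at 4.24 and 4.90 (-0.17). Dcn and Lum lie 38290 bp apart on chromosome 7 of rn4.

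Of the adhesive and matricellular genes, all 5 compared were below 0 at midnight, with a median of -0.37. Sparc had a log2 ratio of -0.34 (1 kb counting bounds 0.731 to 0.847). Fn1, fibronectin, was at 11.8 FPKM at midnight and 16.8 at midday (-0.47), and Postn, periostin, at 9.55 and 12.6 (-0.37). Thbs2, an antiangiogenic thrombospondin, had the lowest ratio of this group, with 2.44 FPKM at midnight and 4.73 at midday (-0.74). Spp1, osteopontin, was at 0.813 and 1.33 FPKM, values too near the floor to read a difference. Vcan, the large proteoglycan versican, is a sum of 4 listed transcripts and reached 0.531 FPKM at midnight and 0.802 at midday, below the filter.

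The remaining collagen chains compared ran from -0.65 for Col8a1 to -0.10 for Col14a1. Col8a1 was at 108 FPKM at midnight and 171 at midday (log2 -0.65, 1 kb counting bounds 0.574 to 0.698). Col23a1, a transmembrane collagen, was at 27.7 and 33.9 (-0.28), and Col6a2, a chain of the beaded filaments around cells, at 12.9 and 17.7 (-0.43). Col14a1, a fibril-associated chain, was at 4.44 and 4.83 (-0.10, or 0.01 after centring). Col6a3, Col13a1 and Col16a1 lay between 1.19 and 1.47 FPKM at midnight and between 1.83 and 1.99 at midday (log2 -0.27, -0.40 and -0.37). Col4a3bp, the ceramide transfer gene, was on the other side, at 24.99 FPKM at midnight and 17.9 at midday (log2 0.46), and without it 34 of 36 compared members were below 0.

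Genes that make, cut or bind matrix proteins were compared from lists of their own, of which 0 to 1 member each passed 2-fold. Of all genes, 61.8% were below 0, 4.18% were at least 2-fold higher at midnight and 2.11% at least 2-fold lower. Of 21 collagen maturation enzymes and chaperones compared (25 of 32 listed genes found), 18 were below 0 at midnight, median -0.17, and 0 were past 2-fold. The lysine hydroxylase gene Plod2 (3.60 FPKM at midnight and 6.39 at midday, log2 -0.69) and the crosslinking oxidase genes Loxl2 (0.471 and 1.36, -0.68), Lox (3.16 and 5.26, -0.59) and Loxl1 (12.8 and 19.4, -0.56) were lowest. Serpinh1, the collagen chaperone, was at 43.2 and 45.7 FPKM. Of 16 matrix receptors compared (19 of 27 found), 13 were below 0, median -0.27, and 0 past 2-fold. The largest ratios were those of Sdc4, a syndecan (118 FPKM at midnight and 70.0 at midday, log2 0.74), and of the collagen receptor kinases Ddr1 (6.57 and 11.5, -0.73) and Ddr2 (2.89 and 4.56, -0.52). Of 18 matrix proteases and inhibitors compared (27 of 28 found), 13 were below 0, a share not far from that of all genes, with a median of -0.34, and 1 was past 2-fold: Timp3, a matrix-bound inhibitor of metalloproteinases, at 53.5 FPKM at midnight, 23.0 at midday and 42.1 in the mixed tissues (log2 1.18). The membrane metalloproteinase gene Mmp14 was at 9.47 at midnight and 16.7 at midday (-0.76), and its inhibitor gene Reck at 8.98 and 14.6 (-0.65). Of 26 other matrix genes compared (36 of 47 found), 22 were below 0, median -0.25, and 0 past 2-fold. Nov (1.99 FPKM at midnight and 4.49 at midday, log2 -0.88) and Hapln4 (3.28 and 6.75, -0.86) had the lowest ratios there, and Tnr, tenascin R, the highest (3.05 and 1.47, 0.71).

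Markers of other cell types that the gland could hold were set against the 61.8% of all genes below 0 at midnight. The shares of fibroblast and microglia markers below 0 were near that of all genes, and those of mural, endothelial, astrocyte and Schwann cell markers were above it, in lists of 5 to 9 genes. Fibroblast and meningeal markers (12 of 14 found were compared, from a list of 18) summed to 185 FPKM at midnight and 213 at midday, with 8 of 12 below 0 and a median of -0.18, and the meningeal transporter gene Slc6a13 past 2-fold (4.74 at midnight and 18.5 at midday, log2 -1.77). The next largest ratios of this list were those of Igfbp2 (log2 -0.61), Pi16 (0.55) and Aldh1a2 (-0.50). Dpt and Pdgfra, fibroblast markers among the 4 above 0, were at 41.0 and 14.0 FPKM at midnight and at 39.2 and 13.6 at midday. Both were picked after their values were seen. Mural markers (8 compared, 7 below 0, median -0.35) summed to 59.4 FPKM at midnight and 73.2 at midday. Endothelial markers (9 compared, 7 below 0, median -0.30) summed to 44.2 and 53.3, with Cldn5 listed at 0 in all 3 libraries. Astrocyte markers were all below 0 (7 of 7, median -0.43, sums 152 and 204), as were the 5 Schwann cell markers compared (median -0.27, sums 17.4 and 22.7), while microglia markers had 5 of 9 below 0 (median -0.18, sums 76.1 and 78.6). Pinealocyte markers summed to 10420 FPKM at midnight and 8861 at midday, with 7 of 10 above 0. The part of these cells, or of the large night-time pinealocyte transcripts in the FPKM scale, in the lower matrix values was not tested.

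**Figure D4:**
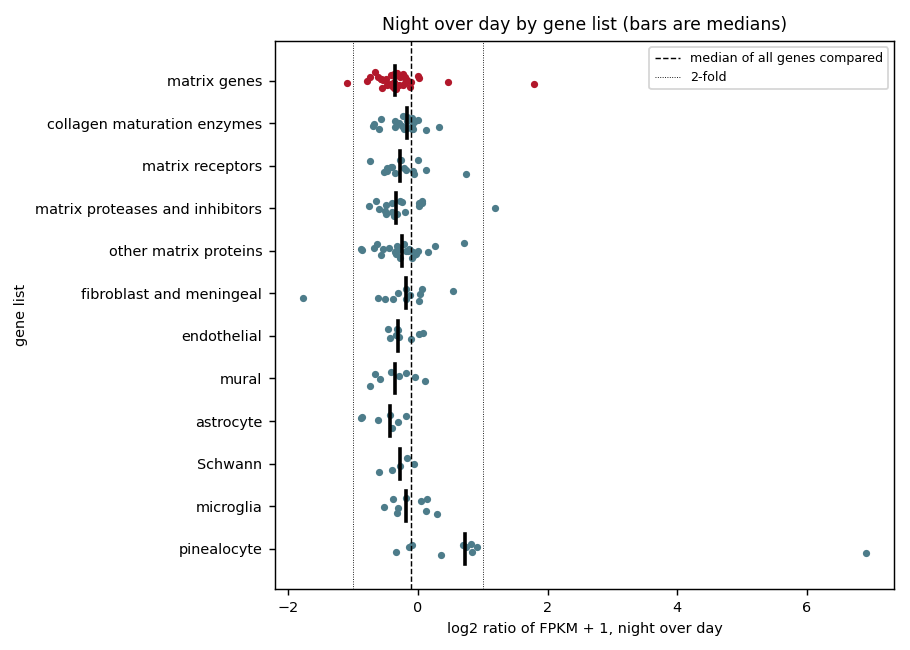
Log2 ratio of FPKM + 1, night over day, of each gene compared (points, spread vertically for visibility), by gene list, with the median of each list as a bar, the median of all genes (-0.11) as a dashed line and 2-fold as dotted lines. The medians of matrix genes (-0.35), matrix enzymes, receptors and proteases and of non-pinealocyte markers lie left of the dashed line, and that of pinealocyte markers (0.72) to the right.

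Set against the mixed tissues, the gland had lower matrix transcripts in most members and higher ones in a few. At midday, 31 of 42 members compared were below 0, against 61.8% of all genes, with a median log2 ratio of -0.89 against -0.27. Past 2-fold, 19 were lower (background 28.9%) and 3 higher (background 8.32%). Past 4-fold, 5 were lower (background 13.2%) and 1 higher (background 2.29%), shares close to those of all genes. At midnight 32 of 42 were below 0 (background 65.4%), the median was -1.19 against -0.36, 24 were at least 2-fold lower (background 31.2%) and 3 higher (background 8.99%), and 7 were at least 4-fold lower (background 14.4%) and 1 higher (background 3.09%). Both comparisons share the mixed-tissue library, so they are not independent. The night gland differs from that midday library in time of day as well as in tissue, and these cannot be told apart. Some members, such as Col2a1, Col9a1, Col9a2 and Vcan, passed the 1 FPKM filter through the mixed tissues alone. Their place below 0 was fixed by that filter, so these counts and medians describe the 42 compared and not all members. The summed level of the members was 48.0% of the mixed tissues at midnight and 63.8% at midday.

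Col8a1 stood apart from the other members. It encodes a short-chain, network-forming collagen known from Descemet's membrane of the cornea and from vessel walls. It was at 108 FPKM at midnight, 171 at midday and 1.32 in the mixed tissues (chr11:43604994-43733870, rn4). At midday it was 129-fold higher than in the mixed tissues in plain FPKM (log2 6.21, 1 kb counting bounds 72.6 to 235), and at midnight 81.9-fold (log2 5.56). It ranked 280th at midnight and 127th at midday among all genes, and 11311th in the mixed tissues, and at midday it exceeded Col1a1, Col1a2 and Col3a1 per length. The nearest entry, RGD1309437, 30117 bp away, was at 4.002, 4.07 and 5.50 FPKM. Col1a2, Dcn and Lum, by comparison, were within 2-fold of the mixed tissues in both gland libraries.

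A few other members were also higher in the gland. Col23a1 was at 27.7 FPKM at midnight, 33.9 at midday and 7.82 in the mixed tissues, 3.54-fold higher at midnight and 4.34-fold at midday in plain FPKM (log2 1.70 and 1.99 on the FPKM + 1 scale, just inside 4-fold). Fbln1 was at 30.1, 34.6 and 13.1 FPKM, 2.30-fold higher at midnight and 2.65-fold at midday. Thbs2, Lum and Col4a4 had log2 ratios of 0.13, 0.39 and 0.36 at midnight and 0.87, 0.58 and 0.58 at midday. Their 1 kb counting bounds included 1 at midnight and left it out at midday. Col14a1 (0.19 at midnight and 0.29 at midday) and Lamc1 (0.19 and 0.18) were above 0 in both, with bounds that included 1. Col5a3, Col4a3 and Fbn1 were above 0 at midday (0.35, 0.17 and 0.08), with midday bounds that included 1. They were below 0 at midnight (-0.74, -0.40 and -0.28, where Fbn1 moves to 0.08 after centring).

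The members furthest below the mixed tissues were Spp1, Eln and Fbln5. Spp1 was at 0.813 FPKM at midnight, 1.33 at midday and 45.4 in the mixed tissues, 34.2-fold lower at midday in plain FPKM (log2 -4.32). Eln was at 8.57, 13.6 and 119 FPKM, 13.8-fold lower at midnight and 8.71-fold at midday (log2 -3.64 and -3.03). Fbln5 was at 1.28, 1.47 and 19.2 FPKM (log2 -3.15 at midnight and -3.03 at midday). Col11a2, a cartilage fibril chain, was also past 4-fold lower in both (1.22, 1.22 and 8.203 FPKM, log2 -2.05 each). At midnight Col4a1 (-2.29) and Col9a2 (-2.02) were past 4-fold as well, though Col9a2 passed the filter through the mixed tissues alone. Sparc had log2 ratios of -1.50 at midnight and -1.15 at midday, Col3a1 of -1.72 and -1.15, and Col1a1 of -1.15 and -0.62. Dcn was at 27.3, 34.6 and 36.7 FPKM (log2 -0.42 and -0.08, the day ratio being 0.19 after centring). The ratio of Col3a1 to Col1a1 was 1.196 at midnight, 1.23 at midday and 1.78 in the mixed tissues.

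**Figure D5:**
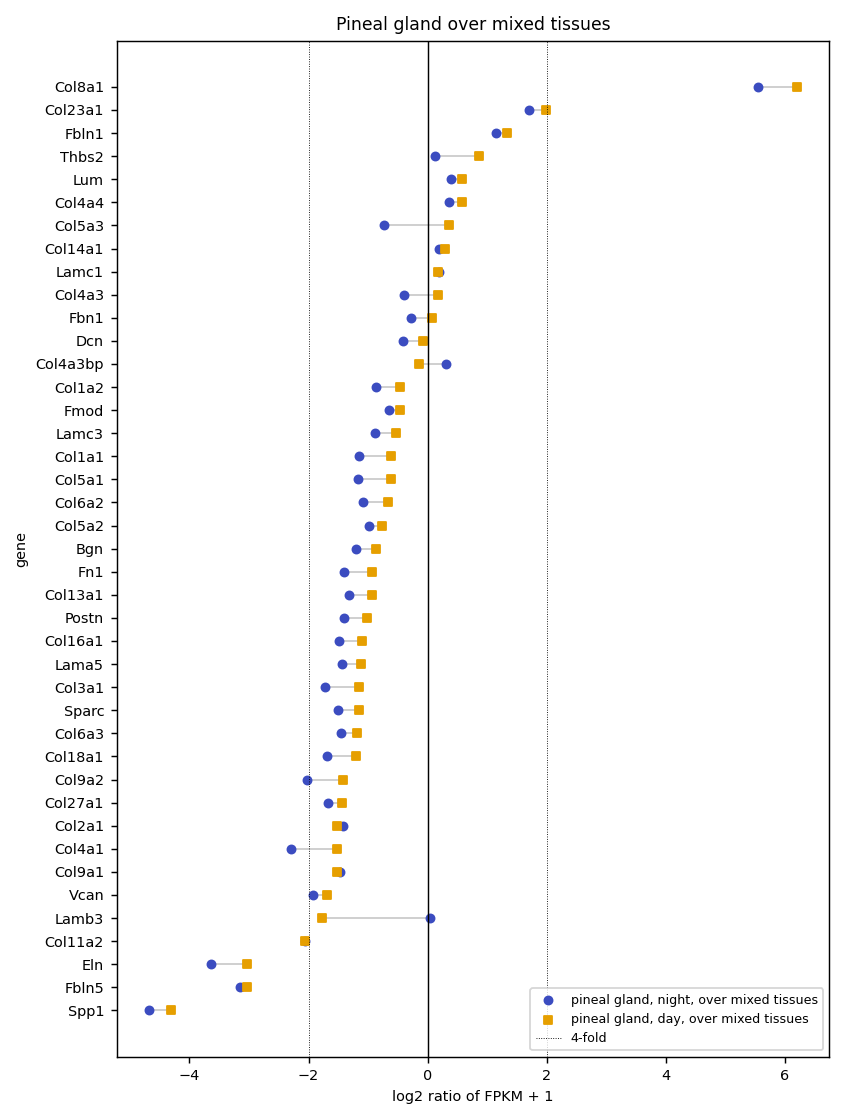
Log2 ratio of FPKM + 1 over the mixed tissues for the night gland (circles) and the day gland (squares), 1 library each, for 41 of the 42 matrix genes compared, ordered by the day ratio. Col8a1 is above 5 in both, Spp1, Eln and Fbln5 are below -3 in both, and Lamb3 has the widest gap between night (0.03) and day (-1.77).

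The other matrix lists and the marker lists gave the setting. Of 30 other matrix genes compared at midday, 5 were at least 4-fold below the mixed tissues and 1 above, Egflam (pikachurin, a matrix protein of the photoreceptor ribbon synapse), at 46.3 FPKM at midnight, 56.3 at midday and 7.29 in the mixed tissues (log2 2.51 and 2.79). Of 22 maturation enzymes 0 were past 4-fold at midday. Of 18 receptors 3 were lower, and of 23 proteases and inhibitors 2 were lower. Of all genes 13.2% were at least 4-fold lower at midday and 2.29% higher, so the shares of the other matrix genes, receptors and proteases lay near those of all genes. The limit set by the filter applies to these lists too. Endothelial markers summed to 44.2 FPKM at midnight, 53.3 at midday and 204 in the mixed tissues, with 4 of 10 past 4-fold lower at midday. Fibroblast and meningeal markers summed to 185, 213 and 447 FPKM, with 7 of 13 above 0 at midday (median 0.05). Ptgds alone gave 271 FPKM of that mixed-tissue sum. Mural markers summed to 59.4, 73.2 and 223 FPKM, with 1 of 10 past 4-fold lower at midday (median -0.79). That 1 was Des, which alone gave 94.0 FPKM of the mixed-tissue sum. The part of these cell types in the levels of the members was not tested.

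Under 1 FPKM in both gland libraries were 10 members, 5 of them in the mixed tissues too. The 5 were Col7a1, Col17a1, Fbn2, Lama1 and Lamb2. The others included Col2a1 and Col9a1, cartilage collagens (2.66 and 1.87 FPKM in the mixed tissues), Col9a2 (3.97) and Vcan (4.82). Col27a1 was at 0.880 FPKM at midnight, 1.204 at midday and 4.97 in the mixed tissues.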

How the data were processed

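Values are FPKM as the authors deposited them, the unit named in the file headers. Per the submitters' processing notes, reads went through TopHat 1.3.1 and Cufflinks 1.2.0 on build rn4. The sources used here do not give options or the handling of multi-mapping reads and duplicates. Per the labels, each library was made from 10 µg of total RNA by poly(A) selection, random priming and 15 PCR cycles, and read as paired 51-base reads. The series table and the sample tables were identical in 51267 values. Its 17089 entries were summed by symbol to 16629 genes and regions (168 entries without a symbol kept their own identifier).

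Starts in the tables count from 0, since end minus start is a multiple of 3 in 99.5% of 1197 olfactory receptor models, and 1 was added. The depth step is the median of the lowest cluster of FPKM times length among such models of 800 to 1100 bp. Bounds are 95% Clopper-Pearson intervals of the fragments this implies on 1 kb. The scripts were tested on simulated data (Python 3.11.15, pandas 2.3.3, numpy 2.4.6, scipy 1.17.1). Every member may be named, and from the other lists the genes with the 4 largest ratios or past 2-fold. Other genes named (Serpinh1, Dpt, Pdgfra, Cldn5, Camk1g, RGD1309437, Egflam, Tph1) were picked after their values were seen. The members and lists were chosen with earlier results of these data known. No test across replicates was possible. 1 member is counted but not reported here by name or value.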

Additional observations from a re-analysis of the deposited data

How the results depend on the processing

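Of 687 single-member ratios recomputed under other settings, 80 fell outside the 1 kb counting bounds of their member. The bounds are those of the plain FPKM ratio, so a ratio of FPKM plus a pseudocount can lie outside them without having changed. Col2a1 and Col9a1, day gland over mixed tissues, did so without the filter (-1.51 and -1.52, as in the main setting). The 80 are thus not a count of changed ratios. Sign changes numbered 5, each under centring (Col11a2, Col14a1, Dcn, Fbn1 and Col4a3bp), and none of these had been past the fold threshold. A pseudocount or a filter cannot change a sign by construction, and the highest row per symbol can alter Vcan alone, so the 687 are not all open to a sign change. For night against day, the median of -0.35 was -0.41 with a pseudocount of 0.1, -0.25 with one of 5 and -0.24 with centring. The 2-fold counts (1 higher, 1 lower) were 0 and 0 with a pseudocount of 5, 0 higher with a filter at FPKM 5 and 0 lower with centring. A filter at FPKM 5 left 22 members, 20 of them below 0. The 25 members at least 1.2-fold lower, a count added after the data were seen, were 16 with that filter and 14 with centring. For the day gland over the mixed tissues the 4-fold counts (1 higher, 5 lower) were 2 and 10 with a pseudocount of 0.1, 2 lower with one of 5, 2 and 3 with centring, and 3 and 19 at a 2-fold threshold. For the night gland (1 higher, 7 lower) they were 13 lower with a pseudocount of 0.1, 2 lower with one of 5, 2 and 3 with centring and 3 and 24 at 2-fold, and the median was -0.71 with a pseudocount of 5. The cause was not tested beyond what each setting does by construction. Without Sparc the summed levels were 513 FPKM by night, 696 by day and 921 in the mixed tissues. No filter, the highest row per symbol and the removal of Col4a3bp changed no count by more than 1.5 times. The planned use of deposited interval bounds was not run, because the tables hold FPKM alone. No paired analysis was possible because each group has 1 library. The shallow night library limits members under about 1 FPKM most.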
